A study of Mus musculus with 8 samples.

Results

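Pericytes and vascular smooth muscle cells are the mural cells that wrap the endothelium of small and larger vessels. They are recruited by endothelial platelet-derived growth factor B (PDGF-B) through its receptor PDGFRβ, and smooth muscle cells among them carry actin-based contractile proteins. TGFβ signaling is known to promote contractile gene expression in mural cells in several tissues. *Cd248* encodes endosialin, a transmembrane C-type lectin of pericytes and stromal fibroblasts. It was followed here in dental pulp together with 9 further genes commonly used to mark mural cells or PDGF-responsive mesenchyme: *Pdgfrb*, *Pdgfra*, *Rgs5*, *Cspg4*, *Mcam*, *Acta2*, *Tagln*, *Myh11* and *Des*. The members were taken by symbol, and 7 of the 10 were among the 12148 genes of the expression table. *Tagln*, *Myh11* and *Des*, which mark contractile cells most strictly, were not analysed here, so *Acta2* was the only contractile gene among the members. *Cd248* was chosen by its lower log2 level in the mutants of these same libraries, so its values are a description and carry no test. The other 6 have known roles in mural or mesenchymal cells, but they and the further lists were chosen with earlier results of these data known. Counts of calls among them are therefore descriptions.

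The pulp came from the first molars of C57BL/6J mice at postnatal day 7 (P7). The 4 control libraries are from Osterix-Cre mice, which carry Cre recombinase under the Osterix promoter, and the 4 *Tgfbr2cko* libraries are from Osterix-Cre:Tgfbr2f/f mice, which carry the same Cre and *Tgfbr2* flanked by loxP sites. Within the tooth this Cre acts in odontoblasts and part of the pulp mesenchyme, and which mural cells had recombined was not measured. Molars of both sides were pooled, the sexes of the libraries are not given in the labels, and nothing states that each library is a separate animal, so p-values measure the spread between libraries. Libraries are named by the last number in their titles, the controls being 49 to 52 and the mutants 53 to 56. The first number, the title number, is 4 for controls 49 and 50, 2 for 51 and 5 for 52. It is 3 for mutants 53 and 56 and 2 for mutants 54 and 55. Whether libraries that share a title number are related is not stated.

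Values are log2 CPM, read counts scaled to the size of their library. Between 8682872 and 13539670 reads per library fell on the 12148 genes. One condition of the libraries bears on these genes. Reads of *Amelx* and *Ambn*, the main enamel matrix transcripts of the adjoining enamel organ, took 18.5% of the library Tgfbr2cko 56 and between 0.326% and 2.74% of the other 7. The level of *Tgfbr2* itself was 7.16, 7.62, 7.64 and 7.52 in controls 49 to 52 against 7.02, 7.00, 7.16 and 7.61 in mutants 53 to 56, a difference of -0.29 (SE 0.17). Differences are *Tgfbr2cko* minus Osterix-Cre on the log2 scale, each with its standard error (SE), and p-values are from limma-trend, a moderated test across all genes. For *Tgfbr2* the p was 0.119 and the adjusted p 0.790. The libraries labelled Tgfbr2cko 55 and Tgfbr2cko 56 thus lay within the control range, the first at its lower end and the second near its top. Where the enamel-rich library Tgfbr2cko 56 changed a call or a limit, the value without it is given. Without it the median difference of all genes was 0.07.

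In the pulp of *Tgfbr2cko* mice, *Rgs5* and *Pdgfrb* fell, beside the lower *Cd248* that led to the choice of these genes. *Pdgfra*, *Cspg4* and *Mcam* had changes of 0.34, 0.26 and 0.02 on the log2 scale, none past the threshold, and *Acta2* depended on 1 library. A gene was called when its unadjusted p was under 0.05 and the genotypes differed 1.5-fold or more, a rule that called 3.65% of all genes as lower and 2.12% as higher. Of the 6 members tested, 2 were called lower and 0 higher. The median difference of these 6 was -0.26, where that of all genes was -0.01. Without Tgfbr2cko 56 the count was also 2, with *Acta2* in the place of *Pdgfrb*. After adjustment over the 12148 genes, *Rgs5* alone had an adjusted p under 0.05, as did 0.947% of all genes, made up mostly of the 0.7% of all genes that were lower.

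**Figure D1:**
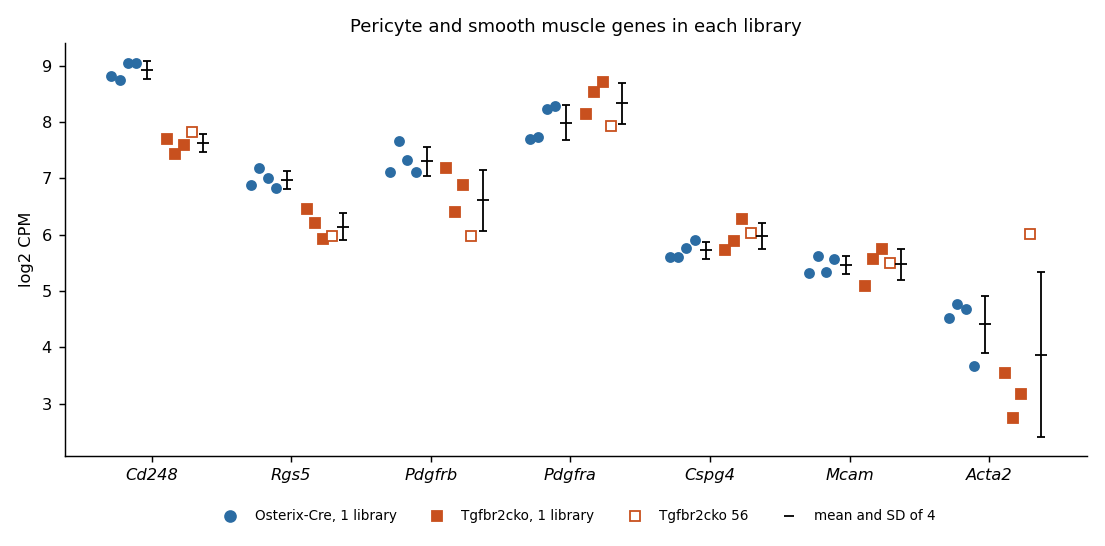
Level of the 7 genes (log2 CPM) in each library. Circles are the 4 Osterix-Cre libraries, squares the 4 Tgfbr2cko libraries (the open square is Tgfbr2cko 56), and black bars the mean and SD of 4. For Cd248 and Rgs5 the highest mutant lies below the lowest control, and for Acta2 the library Tgfbr2cko 56 lies above every other library at 6.01.

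*Cd248* (ENSMUSG00000056481.6) lies on chromosome 19 from 5068078 to 5070682 of GRCm38. Its log2 CPM was 8.82, 8.74, 9.05 and 9.05 in controls 49 to 52 against 7.69, 7.44, 7.58 and 7.81 in mutants 53 to 56. The mutants lay between 7.44 and 7.81 and the controls between 8.74 and 9.05, and the spread within each genotype was small, with an SD of 0.16 in each (n = 4). This is a difference of -1.28 (SE 0.15), so that the mutants held 41.1% of the control level, and it ranked 98 from the lowest of the 12148 log2 fold changes. The reads behind it were many, 4135 to 5407 per control library and 1666 to 3045 per mutant library. Fits to 7 libraries gave differences between -1.34 and -1.22, with -1.34 when Tgfbr2cko 56 was the one omitted. In bulk pulp, fewer *Cd248*-expressing cells and less *Cd248* RNA per cell cannot be told apart.

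*Rgs5* encodes a regulator of G protein signaling that is among the most specific transcripts of pericytes. The gene (ENSMUSG00000026678.10) lies on chromosome 1 from 169655501 to 169695813. The controls had log2 CPM of 6.87, 7.18, 7.01 and 6.83, and the mutants 6.46, 6.21, 5.93 and 5.97. The highest mutant, 53, lay below the lowest control, 52. Genotypes did not overlap for 5.27% of all genes, 3.14% with the mutants lower and 2.13% with the mutants higher. *Rgs5* thus differed by -0.83 (SE 0.16, p of 0.000136, adjusted p 0.0212). Fits to 7 libraries gave between -0.94 and -0.76, with -0.77 when Tgfbr2cko 56 was omitted.

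*Pdgfrb* encodes the receptor through which PDGF-B recruits mural cells. It lies on chromosome 18 from 61045150 to 61085061 (ENSMUSG00000024620.11). Its log2 CPM was 7.11, 7.65, 7.33 and 7.11 in the controls against 7.19, 6.40, 6.87 and 5.97 in the mutants. The genotypes overlapped, because mutant 53 lay above controls 49 and 52, while mutants 54, 55 and 56 lay below every control. Expression differed by -0.69 (SE 0.23, p of 0.0113, adjusted p 0.282). Without Tgfbr2cko 56, the lowest library, the difference was -0.48 with a p of 0.0290, and without Osterix-Cre 50, the highest, it was -0.57 with a p of 0.0407. Both values fall short of the 1.5-fold limit.

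*Pdgfra*, the gene of the receptor for PDGF-A that marks mesenchymal and fibroblastic cells more than mural cells, had no call in either direction. On chromosome 5 from 75152292 to 75198215 (ENSMUSG00000029231.15), it had log2 CPM of 7.69, 7.74, 8.23 and 8.29 in the controls against 8.15, 8.54, 8.71 and 7.92 in the mutants. The genotypes overlapped, with a difference of 0.34 (SE 0.20, p of 0.117, adjusted p 0.786). Without Tgfbr2cko 56 it was 0.48 with a p of 0.0262, still under 1.5-fold. The ratio of the 2 receptors within a library carries no effect of library size. In the controls, 1.5, 1.06, 1.87 and 2.26 *Pdgfra* reads were counted per *Pdgfrb* read, and in the mutants 1.94, 4.39, 3.57 and 3.89. Mutants 54, 55 and 56 therefore had a more *Pdgfra*-weighted receptor pair than any control, and mutant 53 lay within the control range. The ratio was formed after the values were seen and was not tested.

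**Figure D2:**
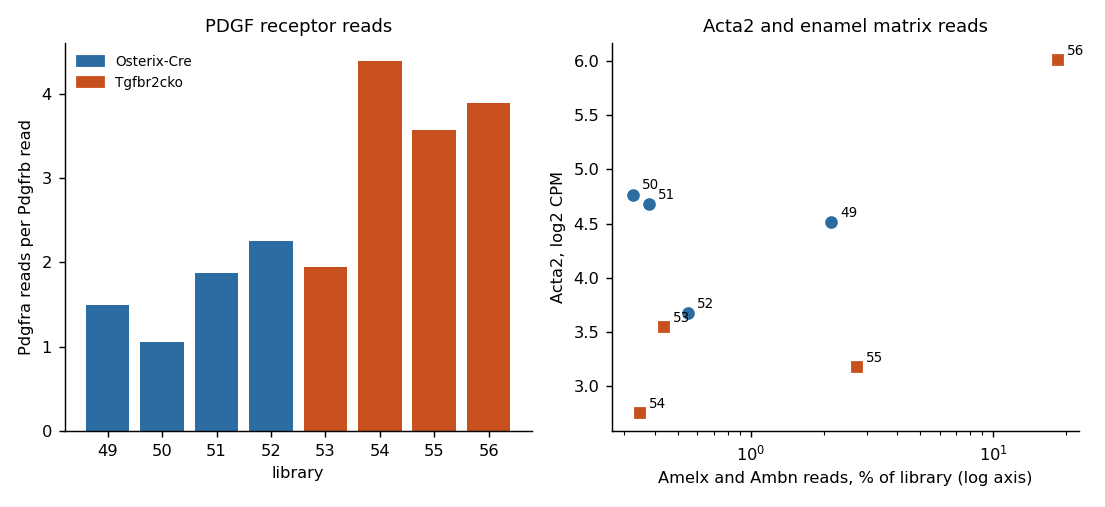
Left, Pdgfra reads per Pdgfrb read in each library, from 1.06 to 2.26 in Osterix-Cre and from 1.94 to 4.39 in Tgfbr2cko. Right, the Acta2 level (log2 CPM) against the percentage of reads from Amelx and Ambn on a log axis, with each library numbered, where Tgfbr2cko 56 lies apart on both axes at 18.5% and 6.01.

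*Cspg4* and *Mcam* encode the NG2 proteoglycan and the adhesion molecule CD146, a pair of surface proteins used to sort pericytes. *Cspg4* (ENSMUSG00000032911.6, chromosome 9 from 56865033 to 56899870) had log2 CPM of 5.61, 5.60, 5.77 and 5.91 in the controls against 5.72, 5.89, 6.28 and 6.03 in the mutants. The difference was 0.26 (SE 0.16, adjusted p 0.803), with overlapping genotypes. *Mcam* (ENSMUSG00000032135.15, chromosome 9 from 44134469 to 44142727) had 5.31, 5.62, 5.34 and 5.57 in the controls against 5.10, 5.56, 5.74 and 5.50 in the mutants. Its difference was 0.02 (SE 0.17, adjusted p 0.998), and the sign varied with the library left out. A p that misses the threshold does not show equal levels. Set against *Mcam* in the same library, *Rgs5* gave 2.95, 2.96, 3.18 and 2.40 reads per *Mcam* read in the controls against 2.57, 1.57, 1.14 and 1.39 in the mutants. As with the receptors, mutant 53 overlapped the controls and the other 3 mutants lay below them. This ratio was also formed after the values were seen and was not tested.

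*Acta2* encodes smooth muscle α-actin, the common marker of contractile mural cells. The gene (ENSMUSG00000035783.8) lies on chromosome 19 from 34241090 to 34255590 and was low, at 78 to 870 reads. The controls had log2 CPM of 4.51, 4.76, 4.68 and 3.67, and the mutants 3.54, 2.75, 3.18 and 6.01. Mutants 53, 54 and 55 lay below every control, whereas Tgfbr2cko 56 lay above all 7 other libraries. Over all 8 libraries the difference was -0.54 (SE 0.55, p of 0.344, adjusted p 0.962). Without Tgfbr2cko 56 it was -1.25 with a p of 0.000699, past the 1.5-fold limit. The same library held the largest share of enamel matrix reads. With the mean level of *Amelx*, *Ambn* and *Enam* as a term of the model, *Acta2* had a difference of -1.09 and a p of 0.0313. Whether the enamel organ or tissue around it contributed to *Acta2* in that library was not tested.

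Levels can be compared between genes only per length, and CPM were therefore divided by the kilobases of merged exons of each gene in GENCODE M21. In the controls *Cd248* was far the most abundant member, at 186 ± 20.1 CPM per kilobase (SD, n = 4). *Pdgfrb* at 29.1 ± 5.43, *Rgs5* at 27.8 ± 3.14 and *Pdgfra* at 25.7 ± 5.57 followed and did not differ beyond their spread. *Mcam* had 13.2 ± 1.43 and *Acta2* 10.03 ± 2.95 CPM per kilobase, again neighbours within their spread, and *Cspg4* was lowest at 4.44 ± 0.46. In the mutants *Cd248* remained first at 76.5 ± 8.41, *Pdgfra* stood second at 32.8 ± 7.98, and *Pdgfrb* had 18.7 ± 6.69 and *Rgs5* 15.7 ± 2.73. *Mcam* had 13.4 ± 2.41 and *Cspg4* 5.33 ± 0.883 in the mutants, and *Acta2* had 10.4 ± 12.6, a spread set by Tgfbr2cko 56. Merged exons can include rarely used ends, which would lower the values of genes that have them. The use of exon ends was not measured, for *Cspg4* or the other members. Antisense genes overlap 4.55% of the exon length of *Pdgfra* and 0.507% of that of *Mcam*, and reads there cannot be assigned without the strand.

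The 5 genes with profiles most like that of *Cd248* were sought among the 10313 genes with a mean log2 CPM of at least 3, by the root mean square distance between log2 profiles over the 8 libraries, each centred on its own mean. They were *Tgm2* (0.156 on the log2 scale), *Afap1* (0.158), *Slco3a1* (0.195), *Tacc1* (0.203) and *Myo10* (0.207). *Tgm2* encodes transglutaminase 2, which crosslinks proteins, *Afap1* an actin filament-associated protein, and *Myo10* a myosin of filopodia. Their differences ran from -1.53 for *Slco3a1* to -0.99 for *Tacc1*. None of the mural genes was among the 5. Because *Cd248* was picked for its difference between genotypes, genes found this way share that difference by construction, and they were not tested.

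A wider list of 15 pericyte genes, of which 13 were analysed, addressed whether other pericyte transcripts were lower too. *Ndufa4l2*, *Rgs4*, *Foxs1* and *Heyl* fell, which is 4 of 13 called lower against 3.65% of all genes, and 0 were called higher. All 13 had a negative difference over the 8 libraries (median -0.34), as did 51.2% of all genes. Without Tgfbr2cko 56, 8 of the 13 were negative, with a median of -0.15, beside 36.3% of all genes, and *Kcnj8*, *Gucy1a1*, *Cox4i2*, *Abcc9* and *Higd1b* were positive, the last 3 named after their values were seen. *Higd1b* had only 3 to 18 reads, too few to read its sign. The same 4 genes were called lower without that library. These 4 also had no overlap between genotypes. *Kcnj8* and *Gucy1a1* stood at the other end of the list. The summed level of the 13 genes lay between 917 and 1227 CPM in Osterix-Cre and between 466 and 1096 CPM in *Tgfbr2cko*. The 466 CPM were those of Tgfbr2cko 56, and the other 3 mutants had 891 to 1096 CPM, overlapping the controls.

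**Figure D3:**
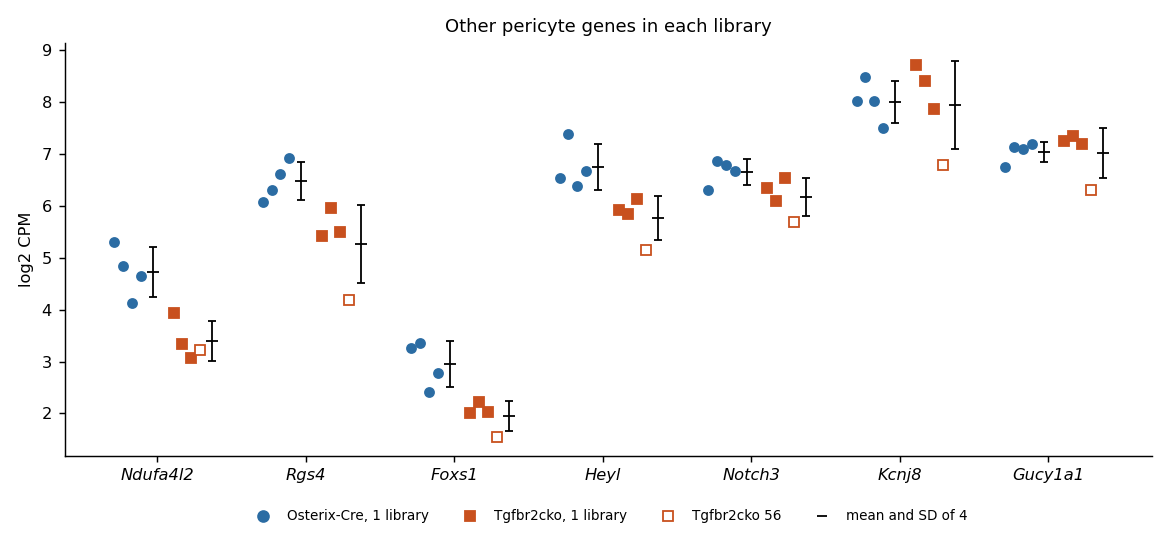
Level of 7 other pericyte genes (log2 CPM) in each library, with symbols as in the plot of the members. The mutants lie below all controls for Ndufa4l2, Rgs4, Foxs1 and Heyl, and overlap them for Notch3, Kcnj8 and Gucy1a1.

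*Ndufa4l2* encodes a mitochondrial protein that is strongly enriched in pericytes and induced by hypoxia. Its log2 CPM was 5.30, 4.83, 4.12 and 4.66 in the controls against 3.94, 3.33, 3.06 and 3.22 in the mutants. It differed by -1.34 (SE 0.27, adjusted p 0.0289) and was the only gene of this list with an adjusted p under 0.05.

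*Rgs4* encodes a further regulator of G protein signaling and is a neighbour of *Rgs5*, 45663 bases away on chromosome 1 (169741477 to 169747642) and on the opposite strand. It had log2 CPM of 6.08, 6.31, 6.62 and 6.92 in the controls against 5.43, 5.96, 5.50 and 4.19 in the mutants. The highest mutant, 54, lay just below the lowest control, 49. The difference was -1.21 (SE 0.31, p of 0.00185, adjusted p 0.110) and -0.85 without Tgfbr2cko 56, the lowest library. The 250 bases before the annotated start of each gene are shown because both genes of this neighbouring pair were called lower. Shared regulation was not tested. Capitals mark CAGAC, the core of the site bound by SMAD proteins downstream of TGFβ receptors, and TATAAA, the TATA box. Sequences and starts are from RefSeq on GRCm38.p6, 5′ to 3′ on the strand of the gene, chr1:169655251-169655500 (plus strand) for *Rgs5* and chr1:169747643-169747892 (minus strand) for *Rgs4*.
Rgs5: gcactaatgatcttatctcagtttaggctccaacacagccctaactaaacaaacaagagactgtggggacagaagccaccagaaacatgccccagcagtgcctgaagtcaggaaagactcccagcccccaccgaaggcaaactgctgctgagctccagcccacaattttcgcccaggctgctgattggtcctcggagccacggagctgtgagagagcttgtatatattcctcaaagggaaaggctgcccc
Rgs4: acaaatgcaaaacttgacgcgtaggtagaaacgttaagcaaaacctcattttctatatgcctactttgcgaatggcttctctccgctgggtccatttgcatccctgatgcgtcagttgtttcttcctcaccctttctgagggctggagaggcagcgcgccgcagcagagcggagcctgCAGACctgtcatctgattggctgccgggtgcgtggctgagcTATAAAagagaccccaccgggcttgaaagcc

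Searched on both strands, the *Rgs4* window held CAGAC starting 72 bases and TATAAA starting 31 bases before the gene start, and the *Rgs5* window held neither. Among 32851 promoter windows of the same length, CAGAC was found in 42.2% and TATAAA in 12.4%. GTGGGAA, the site of the Notch effector RBPJ, was in neither window and in 5.42% of all. The table held promoters for 5 of the 7 members, not for *Cd248* or *Pdgfrb*. CAGAC was in the windows of *Pdgfra*, *Cspg4* and *Acta2*. A match to the searched letters of the CArG box, to which serum response factor binds in contractile genes, was in none of the 5 and in 1.47% of all windows. Boxes that differ from the searched letters were not counted, for *Acta2* as for the others. A match is a description of the letters and not a bound site, and no match says only that the letters are not in this window.

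*Heyl* and *Foxs1* encode transcription factors, the first a target of Notch signaling and the second a forkhead factor of pericytes. *Heyl* had log2 CPM of 6.54, 7.39, 6.39 and 6.68 in the controls against 5.93, 5.84, 6.13 and 5.16 in the mutants, a difference of -0.99 (SE 0.24, adjusted p 0.0854). *Foxs1* had 3.25, 3.37, 2.41 and 2.79 in the controls against 1.9997, 2.23, 2.03 and 1.54 in the mutants. The gene was low, at 35 to 99 reads, and differed by -1.002 (SE 0.28, adjusted p 0.152). *Notch3*, the Notch receptor of mural cells, was singled out after its values were seen. Its difference was -0.49 (SE 0.19, p of 0.0242, adjusted p 0.424), under the 1.5-fold limit, with overlapping genotypes. It passed that limit without Osterix-Cre 49 or Tgfbr2cko 55 (-0.61 in each) and was at -0.33 without Tgfbr2cko 56.

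*Kcnj8* encodes a pore subunit of the potassium channel that marks pericytes, and *Gucy1a1* a subunit of the nitric oxide receptor. *Kcnj8* had log2 CPM of 8.02, 8.48, 8.03 and 7.498 in the controls against 8.71, 8.40, 7.86 and 6.78 in the mutants. The library Tgfbr2cko 56 was the lowest of the 8 and Tgfbr2cko 53 the highest. Expression of *Kcnj8* differed by -0.06 (SE 0.34, p of 0.853) over all libraries and by 0.32 (p of 0.190) without Tgfbr2cko 56. *Gucy1a1* had a difference of -0.02 (SE 0.21), which was 0.22 without that library. Abundant pericyte transcripts thus included some with no call, and the difference between these and *Rgs5* was not tested.

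**Figure D4:**
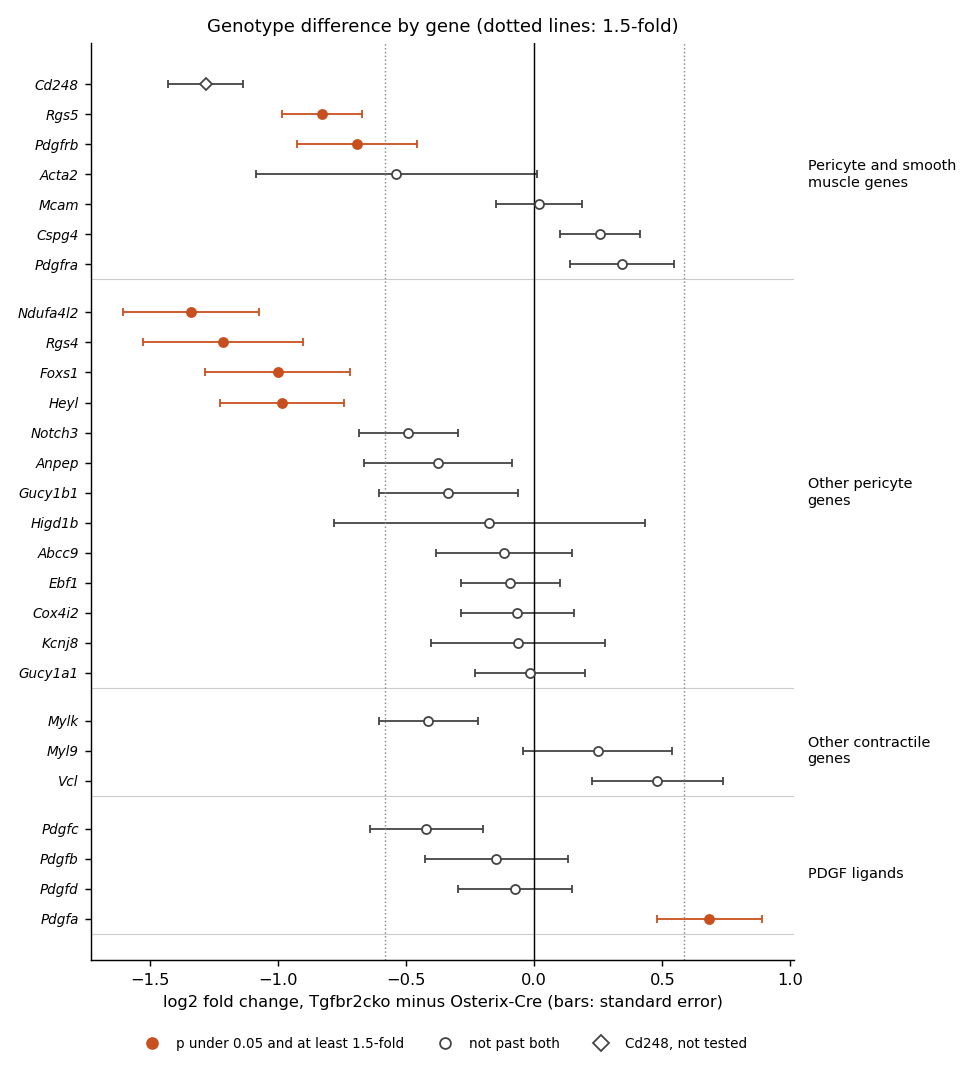
Difference in log2 CPM (Tgfbr2cko minus Osterix-Cre) with its standard error for the members, the other pericyte genes, the other contractile genes described (Mylk, Myl9 and Vcl) and the PDGF ligands. Filled orange points pass p under 0.05 and 1.5-fold (Rgs5, Pdgfrb, Ndufa4l2, Rgs4, Foxs1, Heyl and Pdgfa), and the diamond is Cd248, which was not tested.

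Contractile genes other than *Acta2* were represented by 10 of 16 listed. None was called in either direction by limma-trend, and 0 had an unadjusted p under 0.05. Their median difference was 0.11. The lowest was *Mylk*, the myosin light chain kinase, at -0.41 (SE 0.19, p of 0.0509, adjusted p 0.598). The highest were *Vcl*, vinculin, which shares 25.5% of its exon length with *Ap3m1*, at 0.48 (SE 0.26, p of 0.0832, adjusted p 0.707) and *Myl9*, a regulatory myosin light chain, at 0.25. Many of these genes are also used by nonmuscle cells, and 6 of the listed genes, among them *Cnn1* and *Lmod1*, which are more restricted to smooth muscle, were not analysed here. *Srf*, which encodes the serum response factor, had a difference of 0.32 (SE 0.29), and its coactivators *Mrtfa* and *Mrtfb* had -0.09 and -0.11, none of them called. *Myocd* was not analysed here.

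Among the 4 ligands of the PDGF receptors, *Pdgfa* rose. Its log2 CPM was 4.74, 4.29, 4.47 and 3.99 in the controls against 4.68, 5.09, 5.10 and 5.37 in the mutants, with mutant 53 inside the control range. It differed by 0.68 (SE 0.20, p of 0.00524, adjusted p 0.190). Without Tgfbr2cko 56 the difference was 0.58, without Osterix-Cre 52 it was 0.56, and with the enamel matrix term it was 0.55, all under 1.5-fold. An antisense gene overlaps 26.1% of its exon length, and the strandedness of the counting is not given in the sources used here. *Pdgfb*, the endothelial ligand of *Pdgfrb*, had a difference of -0.15 (SE 0.28), *Pdgfc* -0.42 (SE 0.22) and *Pdgfd* -0.08 (SE 0.22), none past the test. *Pdgfc* was called lower without Osterix-Cre 50 (-0.61, p of 0.0121), and ranged from -0.61 to -0.27 with a library left out.

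*Cd248* belongs to a small family of C-type lectins whose other members are mainly endothelial. *Clec14a* fell, with log2 CPM of 5.22, 5.88, 5.97 and 5.96 in the controls against 4.46, 5.06, 5.21 and 5.11 in the mutants. Its highest mutant, 55, lay just below the lowest control, 49, and the difference was -0.80 (SE 0.21, p of 0.00249, adjusted p 0.124). *Cd93* had a difference of -0.58 (SE 0.19, p of 0.0101, adjusted p 0.268), just short of 1.5-fold. It passed that limit without Tgfbr2cko 56 (-0.69, p of 0.00359), Tgfbr2cko 55 (-0.67), Osterix-Cre 52 (-0.66) or Osterix-Cre 51 (-0.63), and with the enamel matrix term (-0.72), library weights (-0.62), voom weights or median centring. *Thbd*, thrombomodulin, had 0.17 and *Mmrn2*, a vascular matrix protein that binds lectins of this family, -0.26, neither called.

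The endothelial cells that the mural cells enclose were read from 12 markers. Of these, *Cldn5* and *Tek* were called lower and 0 higher, beside 3.65% and 2.12% of all genes. All 12 had a negative difference over the 8 libraries (median -0.34), as did 51.2% of all genes, although *Robo4* was at 0.04 without Osterix-Cre 50. Without Tgfbr2cko 56 all 12 were again negative, beside 36.3% of all genes. *Tek* was at -0.51 without Osterix-Cre 50, under 1.5-fold. *Cldn5*, a tight junction protein, had log2 CPM of 4.69, 5.32, 4.62 and 4.73 in the controls against 3.43, 3.34, 3.66 and 3.81 in the mutants, a difference of -1.28 (SE 0.20, adjusted p 0.00853). *Tek*, the angiopoietin receptor, had -0.64, and *Kdr* and *Robo4* were closest to zero at -0.24 and -0.15. The summed endothelial level ran from 541 to 760 CPM in the controls and from 447 to 561 CPM in the mutants. *Pecam1*, the gene of CD31, named after its values were seen, had -0.28 (p of 0.0860 by limma-trend) and was not called. By staining for the CD31 protein, the paper found no significant difference in vascularization of first molars at P7. Whether the share of endothelial cells differed, and its part in the mural results, was not tested.

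Other cell types that could carry these transcripts were read from their markers. Of all genes, 3.65% were called lower and 2.12% higher. Of 10 fibroblast genes, *Col1a2* was called lower at -1.22 (-0.98 and p of 0.0584 with quantile normalization, not called), with *Thy1* at -0.49 and *S100a4* (51.7% of its exon length shared with *Gm42674*) and *Dcn* highest at 0.19 and 0.52. Without Tgfbr2cko 56 *Dcn* was at 0.65 (p of 0.00699) and was called higher, as it was with the enamel matrix term and with library weights (0.62 in each). *Thy1* was called lower without Osterix-Cre 52 (-0.64) or Tgfbr2cko 53 (-0.70). The summed level of the 10 fibroblast genes was 24114 to 42795 CPM in controls against 16112 to 22741 CPM in mutants. The 16112 CPM were those of Tgfbr2cko 56, and the other mutants had at least 18194 CPM. Without *Col1a2* the other 9 summed to 7843 to 9504 CPM in controls and 8042 to 10376 CPM in mutants, which overlap. Of 7 odontoblast genes *Nes* (-0.81) and *Bglap* (-0.72) were called lower, *Ibsp* (1.24) higher, and *Phex* had 0.14. Without Tgfbr2cko 56 *Bglap* was at -0.56 (p of 0.0516) and not called, and *Ibsp* was at 0.77. *Bglap* also lost its call without Osterix-Cre 49 (-0.56) or 52 (-0.59) and with library weights (-0.45). The odontoblast genes, *Dspp* among them, summed to 8855 to 22405 CPM in the controls against 6342 to 13482 CPM in the mutants, so the labelled tissue expressed its defining markers. The 6342 CPM were those of Tgfbr2cko 56, and the other mutants had at least 7287 CPM. Of 10 enamel organ genes *Klk4* (-2.71) was called lower and *Cdh1* (1.15) higher, with *Amtn* at -0.89, *Ambn* at 1.45 and *Enam* at 1.63. Without Tgfbr2cko 56 *Cdh1* was at 0.55 and not called, *Ambn* at 0.32, *Enam* at 0.45 and *Amtn* at -1.58, and *Klk4* was again called lower at -2.89. *Mmp20*, named after its values were seen, was then called lower as well (-0.68, p of 0.0467). *Cdh1* kept its call only without Osterix-Cre 51, Tgfbr2cko 53 or Tgfbr2cko 54, with library weights, with the minimum level and with title numbers averaged, the last of which also called *Ambn* (1.58) and *Enam* (1.70) higher. *Ambn* was called without Tgfbr2cko 53 (2.09) and *Enam* without Tgfbr2cko 54 (2.60). *Amtn* was called lower with the enamel matrix term (-2.19) and with libraries of one title number averaged (-0.80). Their sum reached 195816 CPM in Tgfbr2cko 56, against 4186 to 23489 CPM in the controls and at most 30287 CPM in the other mutants. The 1 skeletal muscle gene analysed of 10, *Mylpf* (-0.69), was at most 5.20 CPM, and without Tgfbr2cko 56 it was called lower at -0.92, as it was without Osterix-Cre 51 (-0.92) and with the enamel matrix term (-0.99). Among Schwann cell genes, *Mbp* had a difference of 0.57 and was not called, but passed 1.5-fold with library weights (0.65), with title numbers averaged (0.60) and without Osterix-Cre 49 (0.73) or Tgfbr2cko 53 (0.61). Of 6 macrophage genes *Ptprc* (-0.96) and *Cd68* (-0.70) were called lower, with *Csf1r* at -0.27 and *Tyrobp* at -0.26, and their sum was 493 to 615 CPM in the controls against 268 to 607 CPM in the mutants. The 268 CPM were those of Tgfbr2cko 56, and the other mutants had at least 453 CPM. Without that library *Cd68* was at -0.37 (p of 0.135) and not called, *Csf1r* at -0.02, *Tyrobp* at -0.06 and *Ptprc*, still called lower, at -0.81. *Cd68* also lost its call without Osterix-Cre 49, 50 or 51 or Tgfbr2cko 55, with no trend, with library weights and with the enamel matrix term. The part of these cell types in the mural results was not tested.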

How the data were processed

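Pulp RNA from 8 libraries was amplified from a low input by the authors, aligned with HISAT2 2.1.0 and counted per gene with featureCounts (Subread 2.0.1) on GRCm38.p5 with GENCODE M14, per the labels and the paper's methods. Genes were kept by the CLEAR workflow, and the deposited values are log2 CPM made by the authors with voom, which adds 0.5 to each count. All 97184 values turned back into whole reads, within 1.42e-05 of an integer. At these depths 1 read is 0.0739 to 0.115 CPM, and intervals from reads without molecular identifiers cover counting error only.

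Genotypes were compared by limma 3.58.1 in R 4.3.3 with an intensity trend (limma-trend), fitted on all 12148 genes and 8 libraries without a block, with Benjamini-Hochberg adjustment over all genes. The test was checked on simulated data with a dispersion of 0.05. At an adjusted p under 0.05, 77.5% of 200 genes changed 2-fold were recovered, and 4.91% of the genes that passed were false. Of the unchanged genes, 4.997% had an unadjusted p under 0.05. These figures do not give the share of false calls under the rule used for calls here, which takes an unadjusted p and a fold limit. Symbols and exons are from GENCODE M21, which matched 12144 genes.

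The members and lists were chosen with earlier results of these data known. Genes named are every member, *Tgfbr2*, in each other list the 2 highest and the 2 lowest by fold change and every gene called, and the 5 nearest to *Cd248*. Some genes under this rule are not reported here. Alternatives were no trend, library weights, voom weights on the recovered reads, quantile normalization, median centring, a mean log2 CPM of at least 3, averaging libraries of one title number, the enamel term, a 2-fold limit, an adjusted p, and leaving out each library. Figures used matplotlib 3.10.9.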

Additional observations from a re-analysis of the deposited data

Results flagged for a closer look

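In 52 named genes, each with 2 groups of 4 libraries, a library was looked for whose gap to its nearest neighbour, as a share of the range of its group, exceeded Dixon's critical value, which chance gives in about 1 of 20 groups. The 52 were the members and, in each list, the 2 highest, the 2 lowest and every gene called. Genes named after their values were seen, such as *Cox4i2*, were not checked. Of 104 groups, 4 had one. *Gucy1a1* was 6.31 log2 CPM in Tgfbr2cko 56, below the other mutants (gap 0.857 of the range). *Clec14a* was 5.22 in Osterix-Cre 49, below the other controls (0.884). *Cldn5* at 5.32 (0.838) and *Tek* at 5.41 (0.868) were highest in Osterix-Cre 50. No member of the mural list was among them.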

How the results depend on the processing

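Leaving out single libraries gave 48 values for the 6 members tested, of which 41 kept their direction and their side of the threshold, and 44 of 48 values under the other alternatives did. The 701 genes called became 256 at a 2-fold limit and 115 by adjusted p. The 2 members called lower became 0 at 2-fold and 1 by adjusted p, and were 1 to 2 with a library left out (1 without Osterix-Cre 50). They were 3 with library weights, *Acta2* being added, and 2 with the enamel term, where *Acta2* took the place of *Pdgfrb*. Other pericyte genes went from 4 to 3 at 2-fold, to 3 with the minimum level, which dropped *Foxs1*, and to 1 by adjusted p. With a library left out they were 4 to 5 (5 without Osterix-Cre 49 or Tgfbr2cko 55, with *Notch3*, or without Tgfbr2cko 53, with *Anpep*). Endothelial genes went from 2 to 1 at 2-fold and by adjusted p, and were 1 to 2 with a library left out. Other contractile genes were 0 to 1, with *Vcl* called without Osterix-Cre 51 or Tgfbr2cko 53. The 1 PDGF ligand became 0 with the enamel term, at 2-fold and by adjusted p, and was 0 to 1 with a library left out (0 without Osterix-Cre 52 or Tgfbr2cko 56). Among other cell types, *Cdh1* and *Cd68* had a p under 0.05 in 3 of the 8 fits with a library left out. The causes were not tested, beyond the stricter limits themselves.

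With the enamel term the differences were -0.51 for *Pdgfrb*, -0.0046 for *Mcam*, -1.09 for *Acta2*, 0.33 for *Kcnj8*, 0.22 for *Gucy1a1* and 0.14 for *Pdgfd*. With library weights they were -1.16 for *Acta2*, 0.077 for *Kcnj8*, 0.12 for *Gucy1a1*, 0.020 for *Pdgfb* and 0.061 for *Pdgfd*. With quantile normalization *Gucy1a1* had 0.012, and with libraries of one title number averaged *Kcnj8* had 0.017 and *Phex* -0.019. With a library left out the ranges were -0.88 to -0.48 for *Pdgfrb*, -0.072 to 0.14 for *Mcam*, -1.25 to -0.16 for *Acta2*, -0.32 to 0.32 for *Kcnj8*, -0.12 to 0.22 for *Gucy1a1*, -0.22 to 0.15 for *Pdgfd*, -0.13 to 0.37 for *Phex*, -0.031 to 0.49 for *Myl9*, -0.22 to 0.0040 for *Mrtfb*, -0.039 to 0.34 for *Thbd*, -0.32 to 0.044 for *Robo4*, -0.058 to 0.36 for *S100a4* and -1.61 to 0.0098 for *Amtn*. The median of all genes stayed within 0.07 of zero.

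No analysis blocked by title number was run, because the genotypes share only 1 title number. A block would rest on Osterix-Cre 51 against Tgfbr2cko 54 and 55 alone. Depth limited *Higd1b* (3 to 18 reads) and *Foxs1* (35 to 99 reads), and 4 libraries per genotype limited every test. The PDGF ligand, pericyte, contractile and endothelial counts under alternatives were added after seeing the data.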
